A study of Canis lupus familiaris with 12 samples.

Results

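The genes described here encode the T cell receptor complex and the kinases that act first behind it. They were taken by probe name from a canine immuno-oncology panel: *TRAC*, *CD3D*, *CD3E*, *CD3G*, *CD247*, *TRAT1*, *LCK* and *ZAP70*, which are 8 of its 780 endogenous genes. They were measured in lymph nodes of 6 pet dogs with spontaneous sinonasal cancer, and in every dog the tumor was treated by stereotactic body radiation therapy (SBRT) in 3 fractions of 10 Gy. For 3 of the dogs the field also covered the lymph node regions of the neck (elective nodal irradiation, ENI), and their nodes are called irradiated nodes. In the other 3 dogs the tumor alone was targeted, and their nodes are called non-irradiated nodes. Dogs were assigned to treatment at random, and the study took the mandibular node on the tumor side 2 weeks after SBRT. Each group held 6 samples, 2 from each dog, and how the samples of a pair differ is not stated in the labels. The dogs treated with ENI were aged 7, 11 and 14 years and those treated without it 9, 3 and 6 years, so that age and treatment cannot be told apart. Both groups mixed sexes and tumor types, and no node from an untreated dog was included.

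A T cell recognises a peptide on an MHC molecule through the variable chains of its receptor, which have no signalling part of their own. The receptor is carried by CD3 delta, CD3 epsilon, CD3 gamma and the zeta chain encoded by *CD247*, whose cytoplasmic tails hold the tyrosine motifs known as ITAMs. LCK, bound to the co-receptors CD4 and CD8, phosphorylates these motifs, and ZAP-70 then docks on them and passes the signal to adaptor proteins. The draining lymph node is where naive T cells meet antigen carried from a tumor and are primed.

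NanoString nCounter counts barcoded probes hybridised to RNA without amplification. The values were 1 normalized count and 1 SD per gene and group, given below as the authors' mean ± the authors' SD. Values of single samples were not analysed here, so it cannot be said which samples were high or low, and the depth of each sample is unknown. The SDs were taken to cover the 6 samples of a group, which the deposited header does not state. Probes differ in how well they capture their target, so levels were not compared between genes. The deposited values were treated as scaled to 20 housekeeping genes, although the authors' settings are not given. *PTPRC*, which encodes the leukocyte marker CD45, had a log2 ratio of -0.09 ± 0.16 (SE, limma moderated test, adjusted p = 0.813). The labels name lymph node, whereas the study's extraction protocol speaks of frozen tumor. Genes expressed in lymph node tissue were detected in the means of both groups. *CXCL13*, a follicular chemokine, averaged 17547 ± 6448 normalized counts where nodes were irradiated and 9724 ± 8656 where they were not. *CCL21*, a chemokine of the T cell zone, averaged 3925 ± 3306 and 5278 ± 1192. Group values with such SDs cannot show what tissue each sample held.

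The question put to these genes was whether their level in the node differed between dogs treated with and without ENI. The differences leaned to lower levels in irradiated nodes, and none passed the test. Of the 8 genes, 7 had a lower mean in irradiated nodes and 1, *TRAT1*, a higher one. The largest differences were those of *CD3E* and *LCK*, at 1.67-fold and 1.58-fold lower in irradiated nodes, while *CD3G* and *ZAP70* differed by 1.02-fold each. The median log2 ratio, irradiated over non-irradiated, was -0.25 over the 8 genes and -0.05 over all 780 endogenous genes, of which 54.9% were lower in irradiated nodes. The ranges of mean ± SD of the 2 groups overlapped for each of the 8 genes. This overlap was not counted over the other endogenous genes and is no test of a difference. In whole tissue, fewer T cells and less receptor RNA per T cell cannot be told apart.

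The test was limma's moderated test, built from the deposited means and SDs over 6 against 6 samples, two-sided, with Benjamini-Hochberg adjustment over the 780 endogenous genes. It called 28 genes of the panel at an adjusted p under 0.05 (3.59%), 13 higher and 15 lower in irradiated nodes, and 0 of the 8 receptor genes. Before adjustment, 171 genes of the panel (21.9%) had a p under 0.05, of which 105 were lower (13.5% of the 780). *CD3E* and *LCK* were the 2 receptor genes among those lower ones. The 2 samples of a dog are not independent animals, and no values per dog were analysed here. All p-values and intervals below are over samples and are too small and too narrow if the samples of a dog resemble each other.

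**Figure D1:**
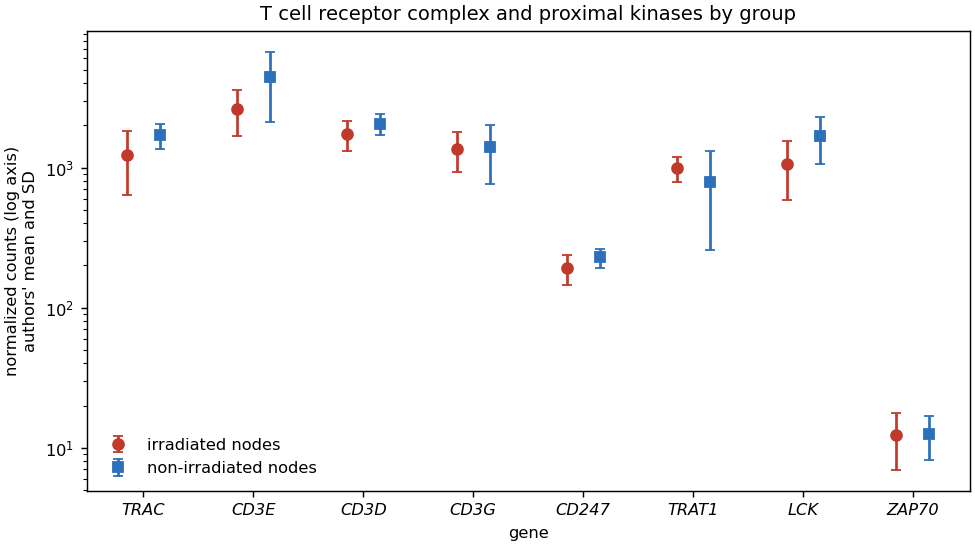
Normalized counts (log axis) of the 8 T cell receptor genes, with the authors' mean as a point and the authors' SD as a bar, for irradiated nodes (circles, left of each pair) and non-irradiated nodes (squares, right; 6 samples of 3 dogs per group). The bars of the 2 groups overlap for every gene shown, which is no test of a difference, and *ZAP70* lies near 12 normalized counts in both groups.

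*TRAC* encodes the constant region of the receptor's alpha chain, which is joined to every rearranged alpha variable segment and therefore measures alpha-beta T cells whatever their specificity. It averaged 1234 ± 595 normalized counts in irradiated nodes and 1695 ± 348 in non-irradiated nodes. The log2 ratio was -0.46 ± 0.26 (SE), with a 95% interval of -1.01 to 0.09 and an adjusted p of 0.330 by limma. The interval thus spans levels of 0.497 to 1.07 times that of non-irradiated nodes. With the SDs carried to the log2 scale by a first-order rule in place of a log-normal one, it was -1.09 to 0.17. The panel also carries the beta chain's constant region as *TRBC*, a probe that was looked up after the values of the other genes had been seen. *TRBC* averaged 7094 ± 3043 normalized counts in irradiated nodes and 9383 ± 1584 in non-irradiated nodes, a log2 ratio of -0.40 ± 0.24 with a limma adjusted p of 0.353. The partner chains of the alpha-beta receptor thus both had log2 ratios below 0, and neither passed the threshold. Gamma chain probes, looked up in the same way, measure the other receptor class. *TRGC2* averaged 61.5 ± 17.5 normalized counts in irradiated nodes and 58.6 ± 12.7 in non-irradiated nodes. *TRGC3* averaged 69.6 ± 39.9 and 173 ± 209, with a log2 ratio of -1.32 ± 0.46 and a limma adjusted p of 0.116 (0.346 with the first-order SDs). *TRGC8*, at 10.7 ± 11.8 and 12.4 ± 14.8, lay near the bottom of the panel's range.

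The CD3 genes encode the invariant chains without which the receptor does not reach the cell surface, and each chain carries a signalling motif. *CD3G*, *CD3D* and *CD3E* lie next to each other in the dog genome, with 0 other genes between them in the RefSeq annotation (assembly UU_Cfam_GSD_1.0). *CD3E* averaged 2627 ± 937 normalized counts in irradiated nodes and 4393 ± 2264 in non-irradiated nodes. Its log2 ratio was -0.74 ± 0.30, with a 95% interval of -1.38 to -0.11, an unadjusted p of 0.0253 and an adjusted p of 0.161 by limma. The interval narrowly excluded 0 with the first-order SDs (-1.48 to -0.0025, limma adjusted p = 0.268). Only 4.10% of the endogenous genes had a lower log2 ratio than *CD3E*.

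*CD3D* averaged 1721 ± 411 normalized counts in irradiated nodes and 2044 ± 348 in non-irradiated nodes. The log2 ratio was -0.25 ± 0.18, with an interval of -0.63 to 0.14 and a limma adjusted p of 0.460. *CD3G* averaged 1362 ± 430 and 1391 ± 627, a log2 ratio of -0.03 ± 0.27 with an interval of -0.61 to 0.55 and a limma adjusted p of 0.963. Its sign turned to 0.06 relative to *PTPRC* and to 0.02 when the ratios were centred on the endogenous median. The 3 chains, which assemble into 1 complex, thus had unequal ratios: *CD3E* lay 0.49 log2 units below *CD3D* and 0.71 below *CD3G*. These differences between genes measured in the same samples could not be tested from group summaries, since the covariance of the genes is not known.

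*CD247* encodes the zeta chain, whose homodimer supplies most of the complex's signalling motifs and which natural killer cells also use. It averaged 192 ± 47.2 normalized counts in irradiated nodes and 228 ± 35.9 in non-irradiated nodes. The log2 ratio of -0.25 ± 0.18 (interval -0.64 to 0.13, limma adjusted p = 0.451) was close to that of *CD3D*. *TRAT1* encodes TRIM, a transmembrane adaptor that associates with the receptor complex. It was the 1 receptor gene with a higher mean in irradiated nodes, at 988 ± 203 normalized counts against 783 ± 524 in non-irradiated nodes. Its log2 ratio of 0.33 ± 0.31 had an interval of -0.32 to 0.99 (-0.48 to 1.15 with the first-order SDs) and a limma adjusted p of 0.566. The SD of *TRAT1* in non-irradiated nodes was 2.70 times that in irradiated nodes on the log2 scale and the widest of any of the 8 genes in either group.

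LCK is the kinase that phosphorylates the motifs on the CD3 and zeta chains. *LCK* averaged 1065 ± 478 normalized counts in irradiated nodes and 1683 ± 622 in non-irradiated nodes. The log2 ratio was -0.66 ± 0.28, with an interval of -1.27 to -0.05, an unadjusted p of 0.0350 and an adjusted p of 0.190 by limma. The first-order rule for the SDs moved the interval across 0, to -1.35 to 0.03 (limma adjusted p = 0.291). ZAP-70 is the kinase recruited to the phosphorylated motifs. *ZAP70* averaged 12.3 ± 5.33 normalized counts in irradiated nodes and 12.6 ± 4.40 in non-irradiated nodes, a log2 ratio of -0.03 ± 0.27 with an interval of -0.62 to 0.55. This probe was among the 61 endogenous genes with a level under 20, and the lowest deposited mean of the panel was 7.55. How much of such a level is background of the assay was not tested. The sign of the *ZAP70* ratio turned to 0.05 relative to *PTPRC* and to 0.01 when centred on the endogenous median.

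**Figure D2:**
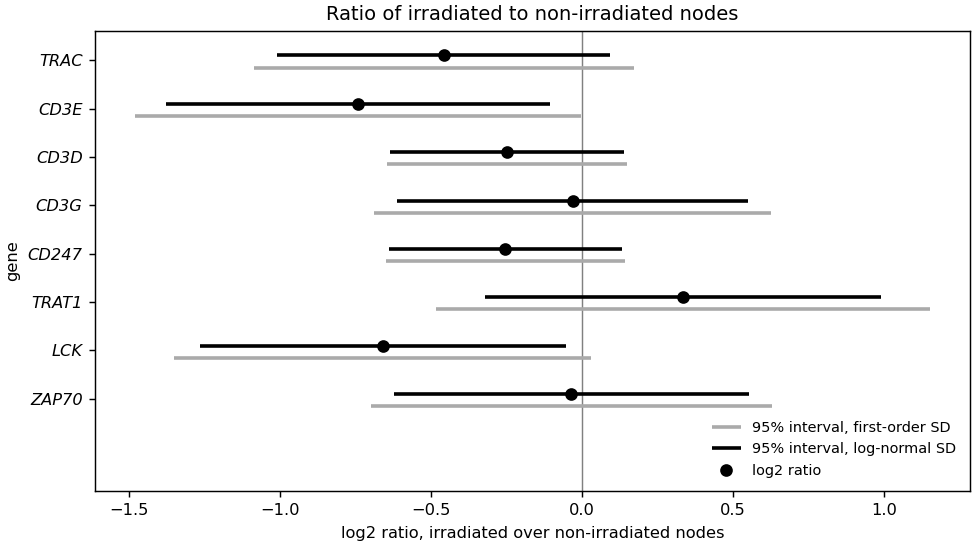
Log2 ratio (irradiated over non-irradiated) for each receptor gene (point), with its 95% interval over samples from the log-normal SDs (black) and the first-order SDs (grey); the line at 0 marks equal means. The black intervals of *CD3E* and *LCK* lie below 0, while with the grey ones that of *CD3E* ends at -0.0025 and that of *LCK* at 0.03.

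The spread between samples was compared next. Carried to the log2 scale, the SD had a median of 0.45 over the 8 genes in irradiated nodes and 0.48 in non-irradiated nodes, against 0.32 and 0.43 over all endogenous genes. In irradiated nodes, 7 of the 8 genes had an SD above the endogenous median, and in non-irradiated nodes 5 did. The SD was larger in irradiated than in non-irradiated nodes for 5 of the 8 genes, whereas this held for 270 of the 780 endogenous genes (34.6%). Other T cell genes gave values of the same kind: the SD was larger in irradiated nodes for 5 of 8 T cell markers (a list that shares 4 genes with the receptor genes) and for 10 of 17 measured co-receptor and surface genes. This order was not confined to T cell genes. Neutrophil markers had a median SD of 1.52 in irradiated and 0.90 in non-irradiated nodes. The medians had the reverse order for B cell markers (0.26 and 0.65) and for macrophage and monocyte markers (0.59 and 0.66). No test of the spread was made.

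*TRAC* and *TRAT1* stood at opposite ends of this comparison. The SD of *TRAC* was 0.61 in irradiated nodes and 0.29 in non-irradiated ones, a ratio of 2.12 that 54 endogenous genes reached or passed, *TRAC* included. *TRBC* had the same order, with an SD of 0.55 in irradiated and 0.24 in non-irradiated nodes. *TRAT1* had an SD of 0.29 in irradiated and 0.78 in non-irradiated nodes, and 117 endogenous genes had an excess in non-irradiated nodes at least as large, itself included. Among the CD3 genes, *CD3E* had SDs of 0.47 in irradiated and 0.64 in non-irradiated nodes and *CD3G* 0.43 and 0.58, while *CD3D* had 0.33 and 0.24. Both kinase genes had the larger SD in irradiated nodes, at 0.57 and 0.49 for *LCK* and 0.56 and 0.47 for *ZAP70*. *ZAP70*, which also counts among the genes of larger SD above, had a level of only 12.4 normalized counts. How much of its spread is noise of the assay at that level was not tested. Whether such spread lay between dogs or between the 2 samples of a dog cannot be told apart in group summaries.

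**Figure D3:**
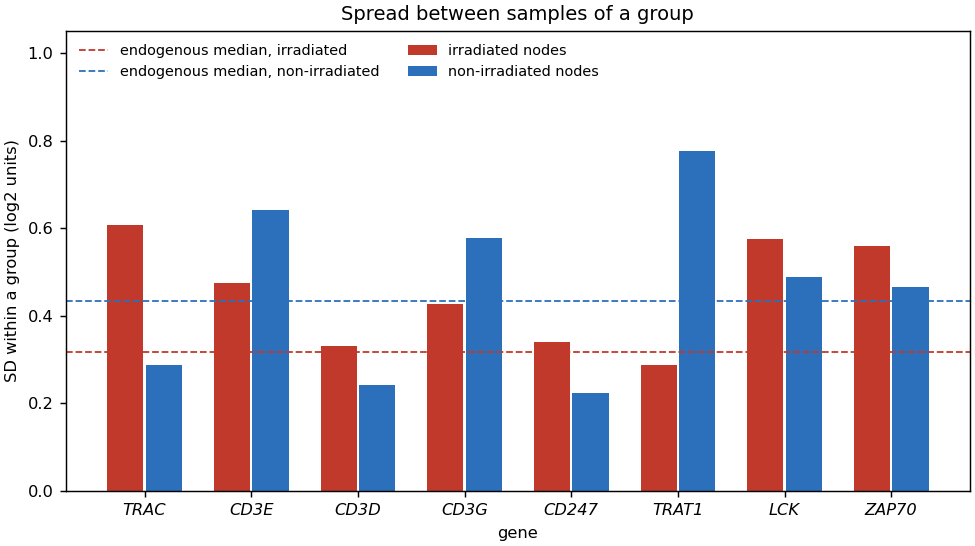
SD within a group on the log2 scale for each receptor gene in irradiated (left bar) and non-irradiated nodes (right bar), with dashed lines at the medians over all endogenous genes, 0.32 and 0.43. *TRAC* has the larger SD in irradiated nodes (0.61 and 0.29) and *TRAT1* the larger in non-irradiated nodes (0.29 and 0.78).

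The receptor genes were next set beside the genes that act behind them. Of 31 further names of T cell receptor signalling, 11 matched a probe, and 8 of these had a lower and 3 a higher mean in irradiated nodes. The median log2 ratio was -0.23, and 0 of 11 passed the limma threshold. The kinase gene *TXK* averaged 240 ± 93.1 normalized counts in irradiated nodes and 343 ± 99.8 in non-irradiated nodes, a log2 ratio of -0.52 ± 0.25. The transcription factor gene *NFATC3* was the 1 gene of the list with an unadjusted p under 0.05 with a log2 ratio of -0.48 ± 0.22 (limma adjusted p = 0.222). At the other end were *BCL10*, which links the receptor to NF-kappa-B, at 0.29 ± 0.14, and the adaptor gene *SH2D1A* at 0.08 ± 0.18. Of 18 names of inhibitors of the pathway, 0 matched a probe.

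Of the co-receptors and other surface genes of T cells, 17 of 21 names were measured, 12 lower and 5 higher, with a median log2 ratio of -0.30. Of these, 1 was called lower in irradiated nodes, over samples rather than dogs. *CD96*, an adhesion receptor of T and natural killer cells, averaged 123 ± 25.3 normalized counts in irradiated nodes and 234 ± 70.4 in non-irradiated nodes, a log2 ratio of -0.93 ± 0.21 (limma adjusted p = 0.0227). The co-receptors that bring LCK to the receptor are encoded by *CD8A*, *CD8B* and *CD4*. *CD8A* averaged 201 ± 155 normalized counts in irradiated nodes and 534 ± 273 in non-irradiated nodes, and *CD8B* averaged 170 ± 127 and 455 ± 401. Their log2 ratios of -1.41 ± 0.38 and -1.42 ± 0.44 did not pass the threshold (limma adjusted p = 0.0519 and 0.0797, or 0.144 and 0.237 with the first-order SDs). *CD4* averaged 898 ± 215 and 866 ± 108, a log2 ratio of 0.05 ± 0.17, and the difference between the CD8 genes and *CD4* was not tested. The co-stimulatory receptor gene *ICOS* was the highest of the list at 0.26 ± 0.17.

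Genes that receptor signalling is known to induce, 19 of 26 names measured, had a median log2 ratio of -0.05, with 9 higher and 10 lower. Early response genes lay lowest. *FOS* was called lower over samples, at 540 ± 318 normalized counts in irradiated nodes against 1409 ± 722 in non-irradiated nodes, a log2 ratio of -1.38 ± 0.35 (limma adjusted p = 0.0419). *EGR1* had a log2 ratio of -0.99 ± 0.27 (limma adjusted p = 0.0600). Highest were *PDCD1*, which encodes the inhibitory receptor PD-1, at 0.66 ± 0.24 (limma adjusted p = 0.127), and the transcription factor gene *IRF4* at 0.48 ± 0.32. The call for *FOS* was lost with the first-order SDs (limma adjusted p = 0.101) and held under 5 of 12 alternatives that adjusted p-values over samples. These genes are also induced by other signals and in other cells.

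Natural killer and cytotoxic genes were included because natural killer cells also use the zeta chain and ZAP-70. Of 19 names 16 were measured, 5 higher and 11 lower, with a median log2 ratio of -0.13. *CTSW*, a cathepsin of cytotoxic lymphocytes, was called lower over samples, at 502 ± 226 normalized counts in irradiated nodes against 1154 ± 440 in non-irradiated nodes (log2 ratio -1.20 ± 0.29, limma adjusted p = 0.0359). *GZMB*, the gene of the killing protease granzyme B, was called higher over samples, at 151 ± 43.9 against 79.8 ± 24.8 (0.92 ± 0.23, limma adjusted p = 0.0419). The paper also gives *GZMB* as increased in the dogs treated with ENI, but reports no significant difference for it. With the first-order SDs the limma adjusted p was 0.0782 for *CTSW* and 0.0753 for *GZMB*, and each call held under 8 of the same 12 alternatives.

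Genes of the receptor of B cells, the other lymphocyte class, leaned to higher levels in irradiated nodes. Of 26 names of the B cell receptor and its signalling, 16 were measured, 13 higher and 3 lower in irradiated nodes, with a median log2 ratio of 0.23 and 0 genes past the limma threshold. *IGHG*, the heavy chain of IgG, had a log2 ratio of 0.57 ± 0.44. Lowest were *IGHM*, the heavy chain of IgM, at -1.03 ± 0.30 (limma adjusted p = 0.0622, or 0.154 with the first-order SDs), and *CD79A*, a signalling chain of the B cell receptor, at -0.13 ± 0.26. The median SD of these genes was 0.26 in irradiated and 0.62 in non-irradiated nodes.

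**Figure D4:**
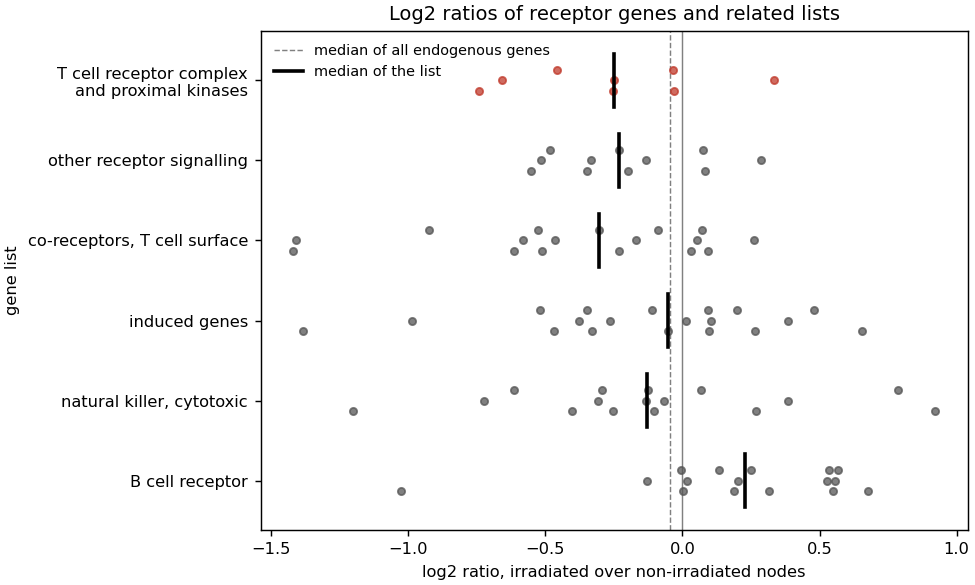
Log2 ratio, irradiated over non-irradiated (x axis), for the T cell receptor genes (top row) and the related lists; each point is a gene, the thick bar is the median of a list and the dashed line the median of all endogenous genes, -0.05. The median of the T cell receptor genes is -0.25 and that of the B cell receptor genes 0.23.

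Markers of the cells that a node can hold were set beside these values. All 8 T cell markers, 4 of them receptor genes, had lower means in irradiated nodes, with a median log2 ratio of -0.46, 0 past the limma threshold and summed authors' means of 11389 in irradiated against 15360 in non-irradiated nodes. Of the 4 that are no receptor genes, *CD6* had a log2 ratio of -0.62 ± 0.43, *CD5* -0.53 ± 0.29, *IL7R* -0.46 ± 0.32 and *CD2* -0.17 ± 0.17. This list holds neither *TRAT1* nor *CD4*, *CD28* and *ICOS*, which had higher means in irradiated nodes, and the wider surface list had a median of -0.30. Of 6 B cell markers 5 were higher (median 0.42, 0 called, sums of 8898 and 7758), and all 3 measured plasma cell markers were higher (median 0.80, 0 called, sums of 2034 and 995).

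Stromal and vessel markers included genes called lower in irradiated nodes, with the 2 samples of a dog taken as independent. Of 5 markers of fibroblastic stroma 3 were lower and called, *PDGFRA* at a log2 ratio of -1.67 ± 0.17 (limma adjusted p = 7.57e-05), *CXCL12* at -1.34 ± 0.14 and *PDGFRB* at -0.92 ± 0.18, with list sums of 4113 in irradiated and 7391 in non-irradiated ones. The other 2 had higher means and were not called, *COL1A1* at 0.24 ± 0.33 and *COL3A1* at 0.03 ± 0.27. Of 4 measured endothelial markers all were lower and *CDH5* was called (-1.14 ± 0.18, sums of 2296 and 2894). Among markers of dividing cells, 4 of 4 were higher and *PCNA* was called (0.63 ± 0.14, sums of 3525 and 1957). The epithelial markers were mixed: 3 of 4 were higher and *KRT18* was called (1.09 ± 0.23, list sums of 508 and 464). That call held under 10 of the 12 alternatives that adjusted p-values over samples. *KRT7* (0.61 ± 0.54) and *EPCAM* (0.42 ± 0.21) were higher but not called. *CDH1* was lower, with a log2 ratio of -0.48 ± 0.16, and was not called (limma adjusted p = 0.109).

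Natural killer markers (1 of 4 higher, sums of 625 in irradiated and 715 in non-irradiated nodes), macrophage and monocyte markers (2 of 6, 2236 and 3071), neutrophil markers (5 of 5, 1861 and 1651) and homing and follicle genes (3 of 6, median log2 ratio -0.14, 27317 and 21077) had 0 genes called by limma. Without *CXCL13* the other 5 homing and follicle genes summed to 9770 in irradiated nodes and 11353 in non-irradiated nodes. Sums weigh probes of high signal most. No marker measured was at 0 in either group, but the lowest deposited mean of any endogenous gene was 7.55. This therefore does not show that a cell type was present. The part of these cell types in the receptor genes' values was not tested.

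The genes outside the 8 whose values were most like theirs were sought by the distance over 3 values, the log2 ratio and the SD in each group, to the medians of the receptor genes. Among 712 genes with a level of at least 20, the nearest 5 were *LTF*, which encodes lactoferrin, at a distance of 0.04, *CXCR3*, a chemokine receptor of activated T cells, at 0.07, *FN1*, which encodes fibronectin, at 0.08, *CD7*, a T cell surface gene, at 0.08, and *MR1*, which presents metabolites to T cells, at 0.08. *LTF* averaged 282 ± 97.0 normalized counts in irradiated nodes and 328 ± 111 in non-irradiated nodes, and *CXCR3* averaged 115 ± 43.2 and 143 ± 52.5. The measure rests on 2 groups and compares sizes and spreads, not patterns over samples.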

How the data were processed

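RNA of 12 lymph node samples was measured on the NanoString nCounter canine immuno-oncology panel (800 probes) and analysed by the authors in nSolver (version and settings: not given in the sources used here). The deposited signal is 1 normalized count per group with an SD, which was taken to be over its samples. The deposited table also holds the authors' own comparison (fold, call, p-value, 95% limits, adjusted p-value), which was not used. Over the 20 housekeeping genes the log2 ratio averaged -2.62e-05, so group values were treated as geometric means scaled to these genes. SDs were carried to the log2 scale under a log-normal distribution, pooled over 6 against 6 samples (10 residual degrees of freedom) and moderated with limma 3.58.1 (R 4.3.3; prior degrees of freedom 4.09) over 780 endogenous genes, with Benjamini-Hochberg adjustment, two-sided, and a threshold of 0.05. Each P-value takes both samples of a dog as independent and measures in part technical or within-dog spread. An assumed case in which these samples are identical was set by calculation, not fitted to dogs, and appears only among the limits. The script was tested on simulated tables. There, a share of 0.0894 of unchanged genes of wide spread had an unadjusted p under 0.05 by limma with the log-normal rule. With the first-order rule the share was 0.0556. In these tables the 6 samples of a group were independent and a gene had the same SD in both groups. Within that setting, unadjusted p-values of such genes under the log-normal rule were somewhat too small. The shares do not cover samples of a dog that resemble each other, or unequal SDs, so the error in the real data is not known. First-order values are printed beside some genes of wide spread.

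The receptor genes and lists were chosen with earlier results of these data known. All 8 genes are described; of other lists the genes past the threshold or, otherwise, those with the 2 highest and 2 lowest log2 ratios are named (in some lists fewer, or further genes chosen after their values were seen). Some genes that count in the lists are not reported here by name. Of the 800 probes 773 matched a symbol in RefSeq (UU_Cfam_GSD_1.0), among them 7 of the 8 genes, all but *TRAC*. Tables and plots were made with Python 3.11.15, pandas 2.3.3, numpy 2.4.6 and matplotlib 3.10.9.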

Additional observations from a re-analysis of the deposited data

How the results depend on the processing

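The values rest on group summaries, so their precision is set by 3 dogs per group and by the assumed number of samples behind each SD. If the SDs covered dogs instead, the SE before moderation would be 1.41 times as large. The residual degrees of freedom would then be 4 in place of 10. The count of endogenous genes past the threshold, 28, moved to 16 with the first-order SD, 51 with a minimum level of 100, 7 with Benjamini-Yekutieli adjustment, and 171 with no adjustment. It was 0 by limma (35 at an unadjusted p under 0.05) in the assumed case of identical samples of a dog, whose sample number and degrees of freedom were set rather than fitted to values per dog, so that this is no test across dogs. Under the other 9 of 14 alternatives it stayed within 1.5 times. With no adjustment 2 receptor genes passed 0.05, *CD3E* at a log2 ratio of -0.74 and *LCK* at -0.66. Under the alternatives with an adjustment the lowest adjusted p of a receptor gene was 0.130. *CD3G* changed sign to 0.0342 with the deposited means taken as arithmetic, 0.0157 when centred on the endogenous median and 0.0578 relative to *PTPRC*, and *ZAP70* to 0.0118 and 0.0539 under the last 2 of these. The median of the induced genes turned to 0.0363 relative to *PTPRC*. The cause of these changes was not tested. Of 110 values of the receptor genes under the alternatives, 103 kept their side of 0 and of the threshold; 5 to 7 of the genes were lower, and their median ranged from -0.27 to -0.16. *ZAP70* had no value at the minimum levels of 20 and 100. No paired analysis was possible because no dog is in both groups and values of single samples were not analysed here, so that no replicate could be left out either.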
